A study of Mus musculus with 31 samples.

Results

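The genes described here are the ligands, the antagonist and the receptors of interleukin 1, interleukin 6 and tumour necrosis factor. They are Il1a, Il1b, Il6, Tnf, Il1rn, Il1r1, Il1r2, Il6ra, Tnfrsf1a and Tnfrsf1b. They were taken by name: every probe whose gene name in the scanner files, or whose current symbol by its transcript accession, is one of these. The 10 genes were read by 11 probes of the 55681 on the array, since Tnfrsf1a has 2 probes. Of the 10 genes, 9 were among the 29309 genes or unnamed transcripts tested. Il1a failed the filter on dim probes and is given as levels.

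RNA of the whole lung was measured on 1-colour Agilent arrays, each holding 1 mouse. The mice were C57BL/6 females, 6 weeks old. All mice had been anaesthetised with xylazine and ketamine. Treated mice received oleic acid, a fatty acid that injures the lung when given by vein, into the tail vein (1.2 µl/g, in 200 µl), and control mice received 200 µl of physiological serum, called saline here. Lungs came from 1, 1.5, 3, 4, 18 and 24 h after injection. Of 31 arrays, 29 were used in the comparisons. The saline groups held 3 arrays at 1 h and 2 at each later time, and the oleic acid groups held 3 arrays at every time except 1.5 h and 3 h, with 2 each. No mouse without an injection is among the samples, so every value follows anaesthesia and an injection.

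The 2 arrays left out had spike-in slopes of 1.66 (replicate 3 of oleic acid at 1.5 h) and 0.751 (replicate 2 of oleic acid at 3 h), against 0.937 to 1.06 on the other 29. On those 29, between 51.18% and 82.39% of spots lay above background, and 5 arrays lay over 70%. At 18 h the saline arrays were all on slide 3 and the oleic acid arrays all on slide 4, so treatment and slide cannot be told apart there. All 8 lung epithelium markers and all 6 endothelium markers lay well above background on 29 of 29 arrays. All 5 heart muscle markers and all 4 liver markers did so too. The mean log2 level of the liver markers (scale defined below) ran from -0.5 to 5.67 on the early saline arrays. What part other tissue had in the levels was not tested. Groups of 2 or 3 arrays limit the precision.

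Interleukin 1 alpha and beta bind the type 1 receptor and start inflammatory signalling through NF-kappaB, and interleukin 1 beta needs cleavage by caspase 1 before release. The interleukin 1 receptor antagonist occupies the same receptor without signalling, and the type 2 receptor is a decoy that binds interleukin 1 and passes no signal on. Interleukin 6 acts through its receptor chain and the shared subunit gp130 on STAT3, and tumour necrosis factor acts through receptors 1 and 2. Macrophages and neutrophils are known sources of these cytokines in injured lung. In whole lung, fewer cells of a type and less RNA per cell cannot be told apart.

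Sequences of 4 of the 11 probes are shown 5′ to 3′ as the scanner files hold them, in lower case, 1 in full and 3 in part. The Il1r2 probe (A_51_P470079, mm9 chr1:40180014-40180073, plus strand) is printed whole because Il1r2 was the gene that changed over time. The Il6 probe (A_55_P1997756, mm9 chr5:30346367-30346426, plus strand) is given by its first 30 bases, as are both Tnfrsf1a probes, which read the same transcript at different places (A_52_P192426, mm9 chr6:125312376-125312435, and A_55_P2051099, mm9 chr6:125311922-125311981, plus strand). No exon or UTR annotation of that build was used here.
Il1r2 probe: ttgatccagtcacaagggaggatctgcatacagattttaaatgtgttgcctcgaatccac
Il6 probe, bases 1 to 30: ctgttacctagccagatggtttcttggaat
Tnfrsf1a probe A_52_P192426, bases 1 to 30: agcaatctttgtatcaattatatcacacta
Tnfrsf1a probe A_55_P2051099, bases 1 to 30: ttccaagatgaacctggctgggtgcctgga

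The other probes lie at mm9 chr2:129125994-129126053 (Il1a), chr2:129190347-129190406 (Il1b), chr17:35336795-35336854 (Tnf), chr3:89674054-89674113 (Il6ra) and chr4:144802359-144802418 (Tnfrsf1b), all on the minus strand. Those of Il1rn at chr2:24205094-24205153 and Il1r1 at chr1:40372667-40372726 lie on the plus strand. Il1b, Tnf and Tnfrsf1a (A_52_P192426) are each printed as 10 spots on every array. The SD between spots of an array had a median of 0.06 for Il1b, 0.17 for Tnf and 0.06 for Tnfrsf1a on the log2 scale, which is the error of reading the same RNA again and not the spread between mice. Levels below are log2 signals from which the array's 75th percentile was subtracted, and levels of different probes are not compared.

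The receptors and Il1b were read on every array, and Tnf, Il6, Il1a and Il1rn were not. Il1b, Il1r1, Il1r2, Il6ra, Tnfrsf1a (both probes) and Tnfrsf1b lay well above background on 29 of 29 arrays. Tnf lay above it on 25, the antagonist Il1rn on 22, Il6 on 14 and Il1a on 11. By treatment, Tnf was above background on 13 of 16 oleic acid and 12 of 13 saline arrays, Il1rn on 14 of 16 and 8 of 13, Il6 on 8 of 16 and 6 of 13, and Il1a on 6 of 16 and 5 of 13. Detection was therefore incomplete in both treatments for these 4 genes, and it was not tested.

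**Figure D1:**
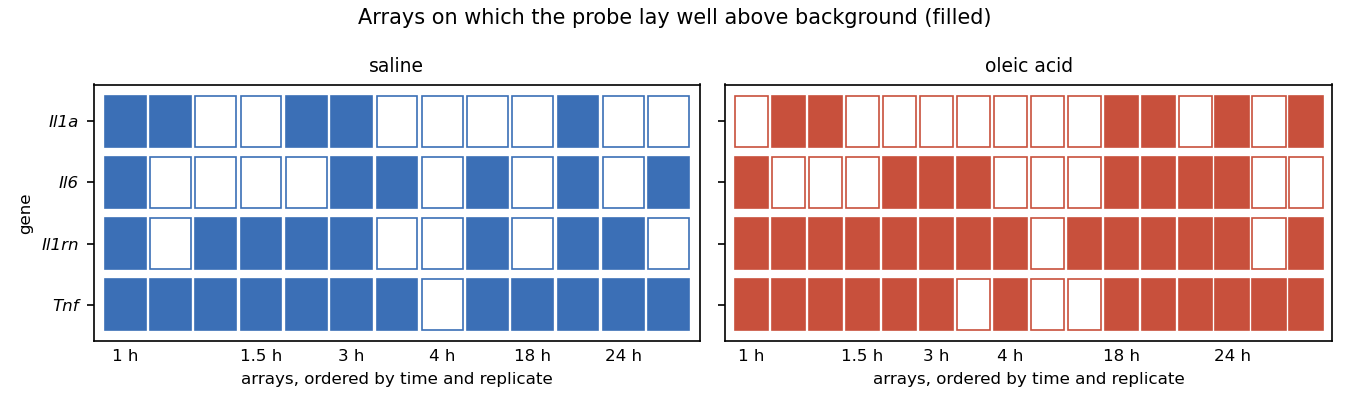
Detection of the 4 genes that were not above background on all 29 arrays, one square per array, filled where the probe lay well above background, with saline arrays on the left and oleic acid arrays on the right in order of time. The time label stands under the first array of each group. Il6 squares are filled on all 4 arrays at 3 h, while Il1a has no filled square in the oleic acid groups of 1.5, 3 and 4 h.

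The first comparison asks whether oleic acid altered these genes at each time. None of the 9 tested genes passed an adjusted p of 0.05 (limma, Benjamini-Hochberg over 29309 features) at any of the 6 times. Of all features, 0% were called at 1 h, 0.00341% at 1.5 h, 0% at 3 h, 0.00341% at 4 h, 0.0239% at 18 h and 0.0136% at 24 h, so a count of 0 among 9 genes is at that background. At an unadjusted p under 0.05, 1 of the 9 passed at 1.5 h and 0 at the other times, while 4.03%, 1.62%, 6.34%, 7.4%, 2.43% and 4.56% of all features did at the same 6 times. Intervals in parentheses are moderated 95% intervals of the log2 difference, oleic acid minus saline, and a p that misses the threshold does not show that the treatments acted alike.

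Pooled over the early times, the differences were small for the receptors and wide for the dim cytokines. The mean over 1 to 4 h (10 oleic acid and 9 saline arrays, each time weighted equally) was 0.27 (-0.30 to 0.85) for Il1b, -0.20 (-1.37 to 0.96) for Il6, 0.20 (-0.55 to 0.95) for Tnf and 0.54 (-0.68 to 1.75) for Il1rn. For the receptors it was 0.28 (-0.06 to 0.62) for Il1r1, 0.09 (-0.43 to 0.61) for Il1r2, -0.12 (-0.37 to 0.12) for Il6ra, 0.06 (-0.14 to 0.27) for Tnfrsf1a and 0.05 (-0.26 to 0.35) for Tnfrsf1b. All 9 intervals held 0, and 0 of 9 were called with 0.00341% of features called. At an unadjusted p under 0.05 it was 0 of 9, and 7.53% of features. The median of the 9 differences was 0.09, and that of all features was -0.03.

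At the late times the picture was as wide. The mean over 18 and 24 h (6 oleic acid and 4 saline arrays) was 0.51 (-0.27 to 1.30) for Il1b, 0.33 (-1.28 to 1.94) for Il6, 0.21 (-0.82 to 1.24) for Tnf and -0.34 (-2.02 to 1.34) for Il1rn. It was 0.41 (-0.05 to 0.88) for Il1r1, -0.04 (-0.76 to 0.68) for Il1r2, -0.19 (-0.52 to 0.15) for Il6ra, 0.06 (-0.22 to 0.35) for Tnfrsf1a and 0.12 (-0.31 to 0.54) for Tnfrsf1b. Here 0 of 9 were called with 0.0171% of features called, and at an unadjusted p under 0.05 it was 0 of 9 and 3.16% of features. The late difference minus the early one was also called for 0 of 9 genes, with 0% of features called, and at an unadjusted p under 0.05 for 0 of 9 and 1.47% of features.

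**Figure D2:**
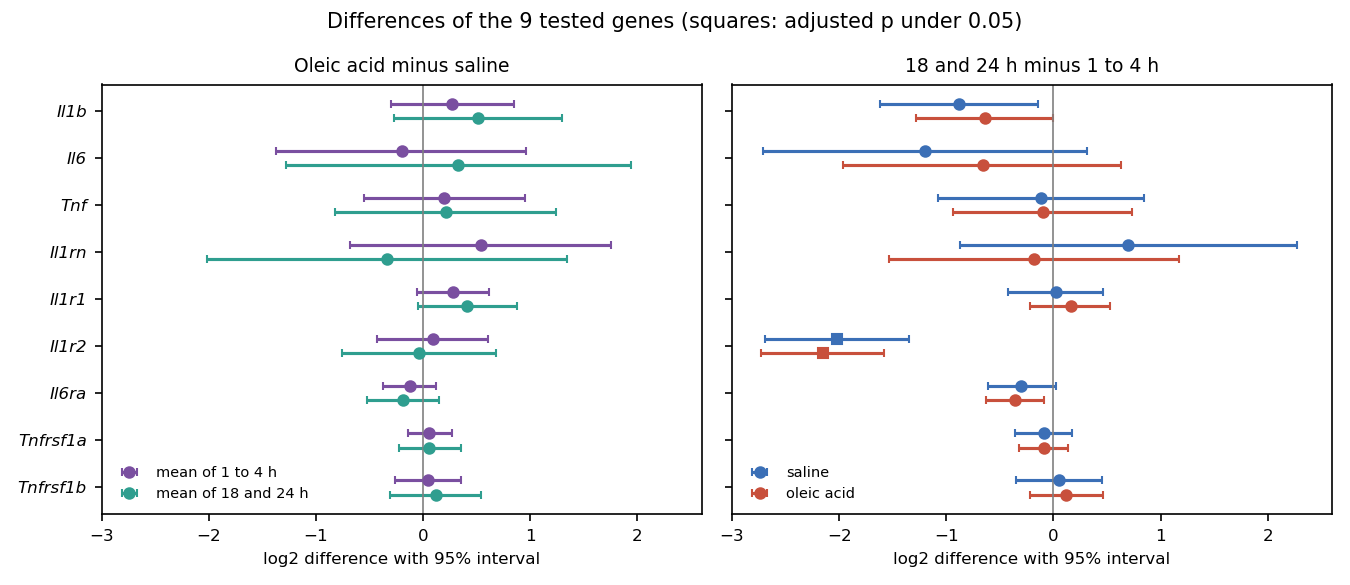
Log2 differences of the 9 tested genes with moderated 95% intervals: oleic acid minus saline on the left (pooled over 1 to 4 h, and over the later pair of times), and late minus early times within each treatment on the right. Squares mark an adjusted p under 0.05. All intervals on the left hold 0, and on the right Il1r2 alone has squares, at -2.02 in saline and -2.15 in oleic acid mice.

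Groups of 2 or 3 arrays often separate without a call, so overlap is counted beside all features. At 1.5 h 4 of the 9 tested genes (Il1b, Il1r1, Tnf, Tnfrsf1b) had groups that did not overlap, all higher in oleic acid, and 26% of all features had such groups. At 3 h it was 4 of 9 (Il1b, Il1rn and Il6 higher, Tnfrsf1b lower), and 35.4% of features. It was 1 of 9 at 4 h (Il1r1, 22.6% of features), 1 of 9 at 18 h (Tnfrsf1b, 11.9%), 1 of 9 at 24 h (Il1r2, lower, 21.4%) and 0 of 9 at 1 h (4.56%). Counts this close to the share of all features are not a result about these genes.

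Among the ligands, Il1b was the one above background on every array. On saline arrays its level was 1.42, 2.21 and 2.04 at 1 h, 0.15 and 0.91 at 1.5 h, 1.97 and 1.52 at 3 h and 0.80 and 2.39 at 4 h. On oleic acid arrays it was 1.78, 1.52 and 0.64 at 1 h, 1.78 and 1.68 at 1.5 h, 2.51 and 3.25 at 3 h and 0.41, 0.98 and 1.42 at 4 h. Every oleic acid array lay above every saline array at 1.5 and 3 h, and the groups overlapped at 1 and 4 h. The difference was 1.2 (-0.02 to 2.42) at 1.5 h and 1.13 (-0.09 to 2.35) at 3 h, each with 2 arrays against 2 and adjusted p of 1 and 0.814 in limma. It was -0.58 (-1.58 to 0.42) at 1 h and -0.66 (-1.77 to 0.46) at 4 h.

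Late Il1b levels were lower on most arrays but spanned a wide range in oleic acid mice. Saline arrays read 0.32 and 0.23 at 18 h and 0.69 and 0.99 at 24 h. Oleic acid arrays read 1.98, 0.45 and 0.22 at 18 h and 1.71, 1.61 and 0.48 at 24 h, with overlap at both times. The difference was 0.61 (-0.51 to 1.72) at 18 h and 0.42 (-0.69 to 1.54) at 24 h. In the order of the 12 group means, oleic acid 3 h stood first (2.88 ± 0.52, SD, n = 2), its arrays above those of the next group, saline 1 h (1.89 ± 0.42, n = 3). All neighbours further down the order overlapped.

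The 3 features whose level followed it most closely, of 15659 candidates, were Stfa2l1 (Pearson r = 0.86), S100a8 (0.83), which encodes a calcium-binding protein abundant in neutrophils, and Cstdc4 (0.80). These r are across 29 arrays that share slides and scaling, and Stfa2l1 kept 0.83 without the 2 arrays farthest from the median of Il1b. Between treatments Il1b differed by -0.58, 1.2, 1.13, -0.66, 0.61 and 0.42 at 1, 1.5, 3, 4, 18 and 24 h. At the same times the 11 neutrophil markers measured had median differences of -0.27, 0.28, 0.46, -0.55, 0.06 and 0.1. At each time 0 of 11 were called. Their part in the Il1b values was not tested.

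Il6 was high at 3 h in both treatments. Its level at 3 h was -1.60 and -2.60 on the saline arrays and -1.07 and -1.47 on the oleic acid arrays, and all 4 lay well above background. On the other 25 arrays it ran from -6.41 to -0.16 with a median of -5.04, and 10 of them lay above background. The array at -0.16 was saline 4 h replicate 2, and without it the highest of the other 24 was -3.36, below all 4 arrays of 3 h. On those 4 arrays 54.29% to 66.19% of spots lay above background, and on the other 25 it was 51.18% to 82.39%. Oleic acid 3 h replicate 3 was on slide 3 with the 4 h arrays, and the others of 3 h were on slide 2. The high Il6 level at 3 h was seen in the values and has no test. What part brightness or slide had in it was not tested.

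Between treatments Il6 was not called. At 3 h the oleic acid arrays lay above the saline arrays by 0.83 (-1.67 to 3.32, adjusted p = 0.968, limma). At 4 h the saline arrays read -5.50 and -0.16 and the oleic acid arrays -5.22, -4.09 and -4.48, with 1 of 2 saline and 0 of 3 oleic acid arrays above background. The measured means at 4 h were -4.60 in oleic acid and -2.83 in saline (difference -1.77, -4.04 to 0.51, adjusted p = 0.696, limma). With oleic acid arrays raised to at least the dimmest signal that counts as above background, the saline mean was 2.67-fold higher. That is not a lower bound, since 1 of the 2 saline arrays was not above background, and it rests on saline 4 h replicate 2. Without that array the difference at 4 h was 0.91, and without saline 4 h replicate 1 it was -4.44. Il6 passed the filter through the 3 h groups and oleic acid 18 h, the groups in which all arrays detected it.

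**Figure D3:**
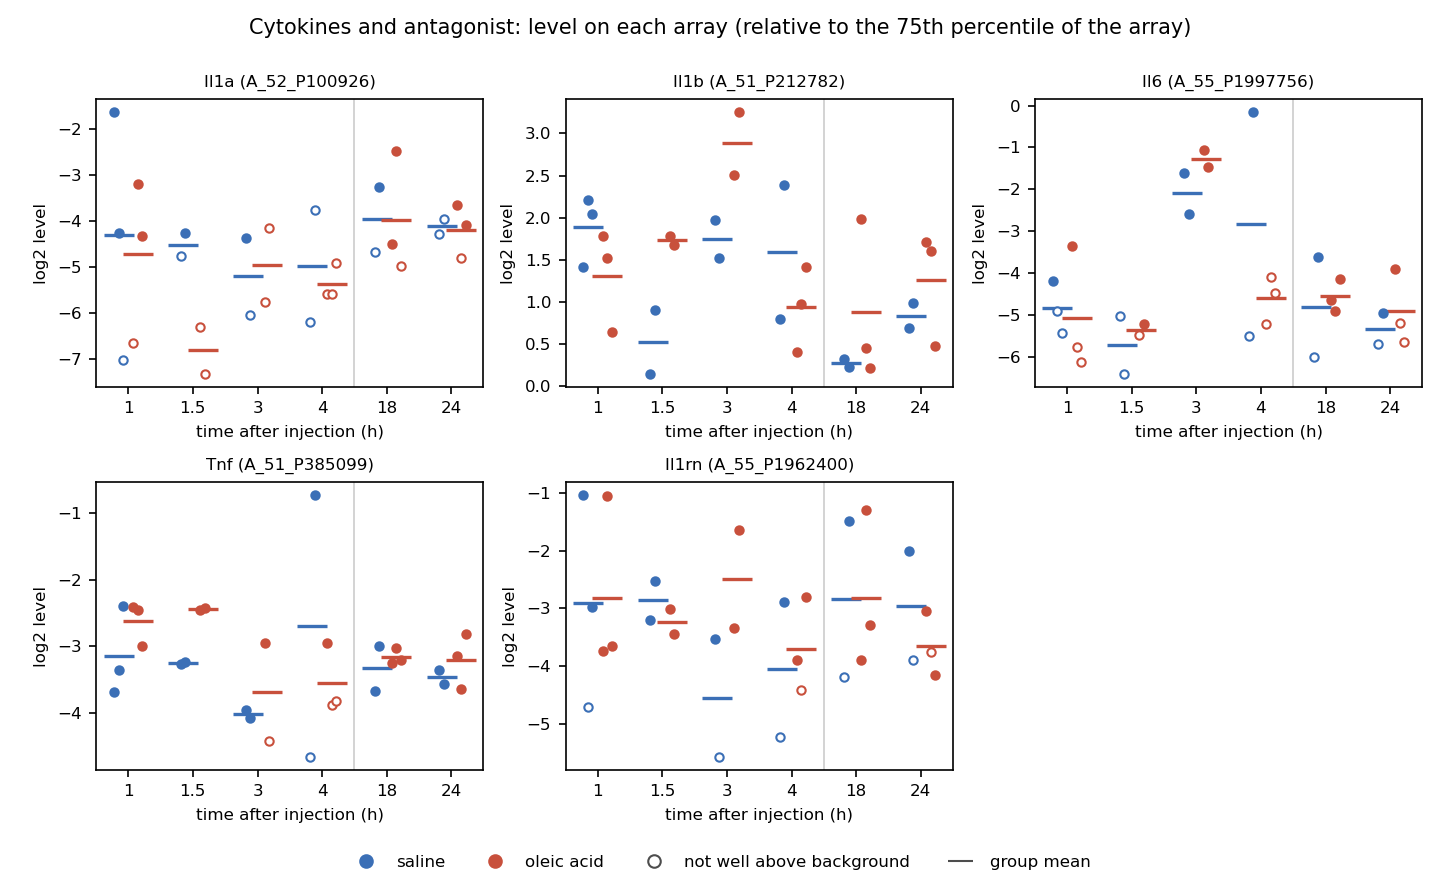
Level of the 4 cytokines and of the antagonist Il1rn on each of the 29 arrays against time, in log2 units above or below the array's 75th percentile, with saline in blue, oleic acid in red, open points where the probe was not well above background and bars for group means. Il6 stands between -2.60 and -1.07 at 3 h in both treatments. For Tnf and Il6 a saline array at 4 h stands at -0.74 and -0.16, above all other arrays.

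Tnf was dim and was not called at any time. Oleic acid arrays read -2.41, -2.46 and -3.0 at 1 h and -2.45 and -2.43 at 1.5 h, and saline arrays read -3.68, -3.35 and -2.39 at 1 h and -3.26 and -3.24 at 1.5 h. The groups overlapped at 1 h and not at 1.5 h, where the difference was 0.81 (-0.79 to 2.41, adjusted p = 1, limma). At 3 h oleic acid arrays read -2.95 and -4.42 and saline arrays -3.95 and -4.07, a difference of 0.33 (-1.27 to 1.93). At 18 and 24 h all 10 arrays lay between -3.66 and -2.82 and were above background.

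The 4 h value of Tnf depended on both saline mice. The saline arrays read -4.65 (not above background) and -0.74, and the oleic acid arrays -2.95, -3.88 and -3.82, so the saline arrays lay below and above all oleic acid arrays. The difference was -0.86 (-2.32 to 0.61, adjusted p = 0.773, limma). Without saline 4 h replicate 1 it was -2.81 with an adjusted p of 0.0399, and the saline side then held replicate 2 alone, assumed to vary like the other groups. Without saline 4 h replicate 2 it was 1.1 (adjusted p = 0.791). Tnf is thus called lower in oleic acid at 4 h in 1 setting, and its direction turned in another.

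Saline 4 h replicate 2 was the highest of the 29 arrays for Il6, Tnf and the decoy receptor Il1r2. Its spike-in slope was 1.00, 56.76% of its spots lay above background and 197 spots carried an outlier flag, against 54.82% and 179 on the other saline array of 4 h. Its mean level of the 11 neutrophil markers was 3.65, the highest of the 9 early saline arrays, and that of the other was 2.81. What set this mouse apart was not tested.

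Il1a was near the detection limit. Its level ran from -7.33 to -1.63, and in no group did all arrays detect it. In the oleic acid groups it lay above background on 2 of 3 arrays at 1 h, 0 of 2 at 1.5 h, 0 of 2 at 3 h, 0 of 3 at 4 h, 2 of 3 at 18 h and 2 of 3 at 24 h. In the saline groups it was 2 of 3, 1 of 2, 1 of 2, 0 of 2, 1 of 2 and 0 of 2 at the same times. At 1.5 h the measured means of Il1a were -6.82 in oleic acid and -4.52 in saline. With oleic acid arrays raised as for Il6, the saline mean was 1.84-fold higher. That is no lower bound either, since 1 of 2 saline arrays detected it. With the filter on dim probes lifted, Il1a was called in 0 of 11 comparisons, and its mean over 1 to 4 h differed by -0.71 (adjusted p = 1, limma).

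The antagonist Il1rn varied widely among mice and was not called. On oleic acid arrays it ran from -4.41 to -1.05 with a median of -3.40 at 1 to 4 h, and on saline arrays from -5.57 to -1.04 with a median of -3.2. The widest difference at 1 time was 2.06 (-0.54 to 4.66, adjusted p = 0.862, limma) at 3 h, where the oleic acid arrays read -3.34 and -1.64 and the saline arrays -3.53 and -5.57, and these groups did not overlap. All neighbours in the order of its 12 group means overlapped, from oleic acid 3 h (-2.49 ± 1.2, SD, n = 2) down to saline 3 h (-4.55 ± 1.45, n = 2).

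The level of Il1rn followed the share of an array's spots above background. Across the 29 arrays, which share that share of spots through their scaling, r was 0.82 (rho 0.74). On the 5 arrays over 70% Il1rn lay between -2.52 and -1.04, and on the other 24 between -5.57 and -1.64, with 17 of 24 above background. For Il1a r was 0.62 (rho 0.42), and it lay above background on 5 of the 5 and 6 of the 24. For the other 8 genes r lay between -0.44 and 0.14. The 3 features most like Il1rn were Chek2 (r = 0.93), Speer4a (0.92) and Mlip (0.91). What part the brightness of the array had in the Il1rn values was not tested.

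Among the receptors, Il1r1, which carries the interleukin 1 signal, had a level above that of saline mice on average at 5 of the 6 times and did not pass the test at any. At 4 h it read 1.06, 0.67 and 0.68 on oleic acid arrays and 0.18 and 0.22 on saline arrays. These groups did not overlap, and the difference was 0.60 (-0.06 to 1.26, adjusted p = 0.679, limma). At 1.5 h they did not overlap either (1.21 and 1.33 against 1.1 and 1.02, a difference of 0.21). At 24 h the difference was 0.54 (-0.12 to 1.2) with overlap, since the saline arrays read -0.53 and 0.98. All neighbours in the order of the 12 group means overlapped. Oat (r = 0.92), Ywhag (0.91) and Ctsc (0.90) were most like it over 29 arrays.

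Tnfrsf1b, the TNF receptor found mostly on immune cells and endothelium, gave the only interval that left out 0 in a comparison of treatments. At 1.5 h it read 0.11 and 0.37 on oleic acid arrays and -0.64 and -0.45 on saline arrays. The groups did not overlap, and the difference was 0.79 (0.13 to 1.45, unadjusted p = 0.0216, adjusted p = 1, limma). At 3 h the order was the other way, with -0.61 and -1.09 on oleic acid and -0.47 and -0.06 on saline arrays, a difference of -0.58 (-1.24 to 0.08). At 18 h it was 0.34 (-0.26 to 0.94), again without overlap. Over alternatives the value at 1.5 h stayed between 0.64 and 1.08, and the adjusted p was never under 0.749.

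Il6ra, the ligand-binding chain for interleukin 6, had one of the narrowest ranges, from 3.49 to 4.67 over 29 arrays. The difference between treatments lay between -0.37 (-0.85 to 0.10) at 24 h and 0.04 (-0.38 to 0.47) at 1 h. All neighbouring group means overlapped. Pex11a (r = 0.93), Ptgs1 (0.89) and Acadvl (0.88) were most like it.

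Tnfrsf1a, the widely expressed TNF receptor that carries a death domain, was not called in any comparison. By probe A_52_P192426 it ran from 2.22 to 3.32, and the difference between treatments lay between -0.12 (-0.48 to 0.24) at 1 h and 0.29 (-0.15 to 0.73) at 1.5 h. By probe A_55_P2051099 it ran from 2.34 to 3.29, and the differences lay between 0.00 (-0.46 to 0.45) at 4 h and 0.18 (-0.27 to 0.64) at 24 h. Although they read 1 transcript, the 2 probes barely moved together over 29 arrays (r = 0.09, rho 0.22). Their largest gap on an array was 0.86, which includes any constant offset between the probes. The second probe was not called either. Ipmk (r = 0.91), Smap1 (0.90) and Sort1 (0.90) were most like the probe A_52_P192426.

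**Figure D4:**
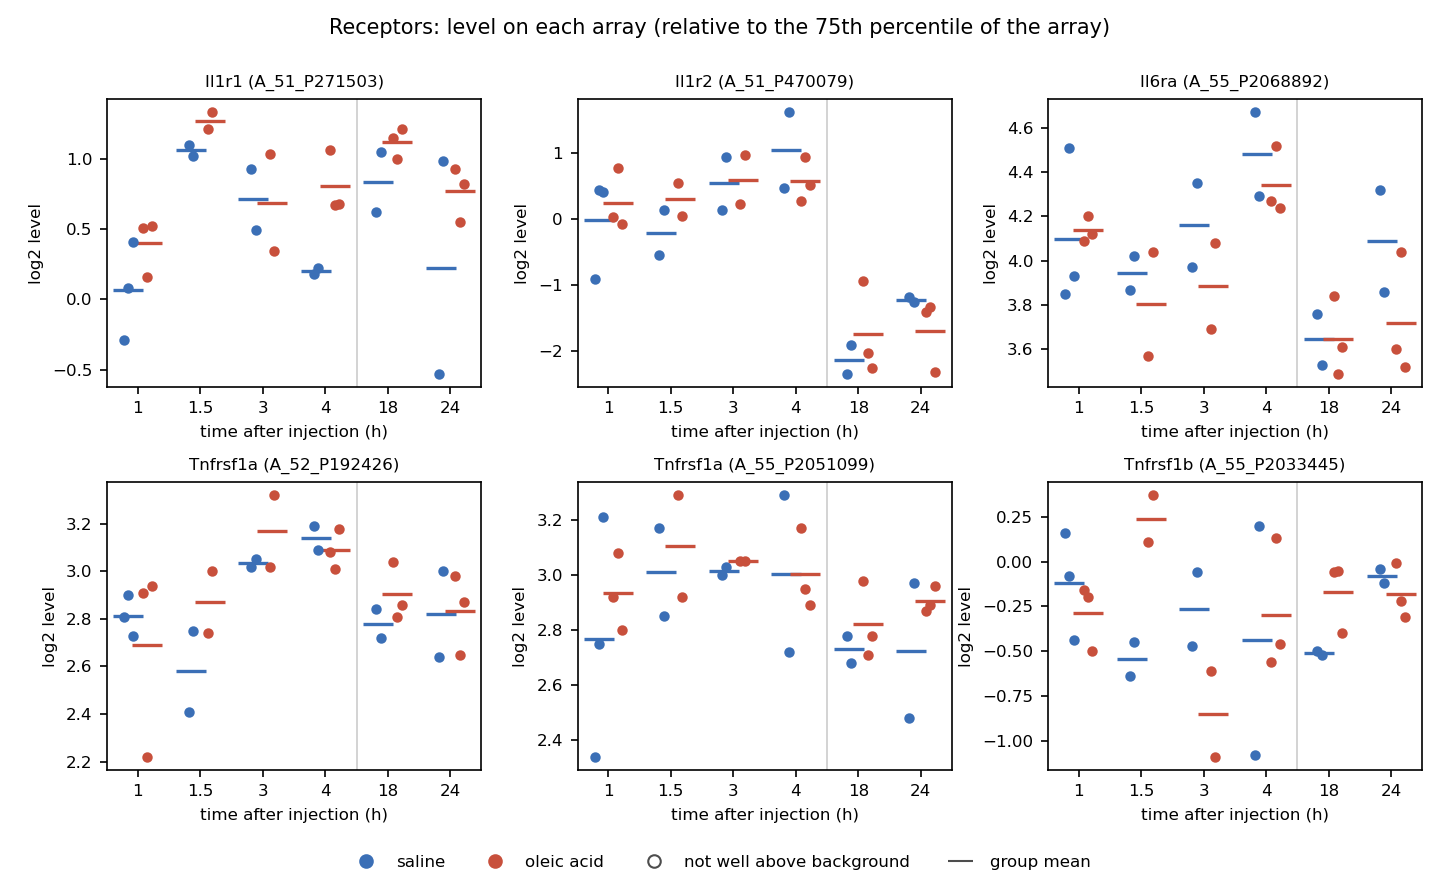
Level of the receptors on each of the 29 arrays against time, in log2 units above or below the array's 75th percentile, with saline in blue, oleic acid in red and bars for group means. Il1r2 lies at or above -0.91 at 1 to 4 h and at or below -0.94 at 18 and 24 h. The 2 Tnfrsf1a probes, shown in separate panels, do not rank the arrays alike.

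The second comparison asks how the genes differed between the late times, 18 and 24 h, and the early times, 1 to 4 h, within each treatment. Il1r2, the decoy receptor, fell in both. In saline mice it was called with 2.77% of all features called (1.42% as lower, 1.35% as higher), and in oleic acid mice with 4.92% called (2.96% as lower, 1.96% as higher). It was the 1 member of 9 called in each.

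On the 9 early saline arrays Il1r2 had a lowest level of -0.91, a median of 0.41 and a highest of 1.62. On the 4 late saline arrays it read -2.35 and -1.92 at 18 h and -1.19 and -1.26 at 24 h. Every late saline array lay below every early one, and the difference was -2.02 (-2.69 to -1.35), a 4.06-fold lower level, with an adjusted p of 0.00228 in limma. The share of all features whose late and early arrays separate in this way was not counted in either treatment.

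In oleic acid mice the 10 early arrays ran from -0.08 to 0.97 with a median of 0.40. The 6 late arrays read -0.94, -2.04 and -2.26 at 18 h and -1.42, -1.34 and -2.33 at 24 h, again all below the early ones. The difference was -2.15 (-2.73 to -1.58), 4.45-fold lower, with an adjusted p of 0.000215. The difference between treatments in this fall was -0.13 (-1.02 to 0.75, adjusted p = 1), so a differing fall was not detectable with these arrays. In the order of the 12 group means the 8 early groups came first, from saline 4 h (1.05 ± 0.82, SD, n = 2) to saline 1.5 h (-0.21 ± 0.48, n = 2), and the 4 late groups followed from saline 24 h (-1.23 ± 0.05, n = 2) to saline 18 h (-2.14 ± 0.30, n = 2). Neighbours overlapped except between saline 1.5 h and saline 24 h and between saline 24 h and oleic acid 24 h (-1.70 ± 0.55, n = 3).

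Time and slide run partly together, since slide 4 held late arrays and slides 1 and 2 early ones. Slide 3 held the 4 h arrays, the saline arrays of 18 h and oleic acid 3 h replicate 3. Within slide 3 the saline arrays of 18 h lay 3.18 below those of 4 h (difference -3.18, -4.29 to -2.07, adjusted p = 0.00305, limma), with 5.39% of features called and 3.81% called as lower. This contrast was added after the values were seen and rests on 2 arrays against 2, saline 4 h replicate 2 among them. It sets the highest of the 12 group means against the lowest, so its size and p are favoured by that choice. The contrast within slide 3 was not run without saline 4 h replicate 2. Without that array the fall over all saline times was -1.88 (adjusted p = 0.00512). For oleic acid mice no slide held both early and late arrays.

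**Figure D5:**
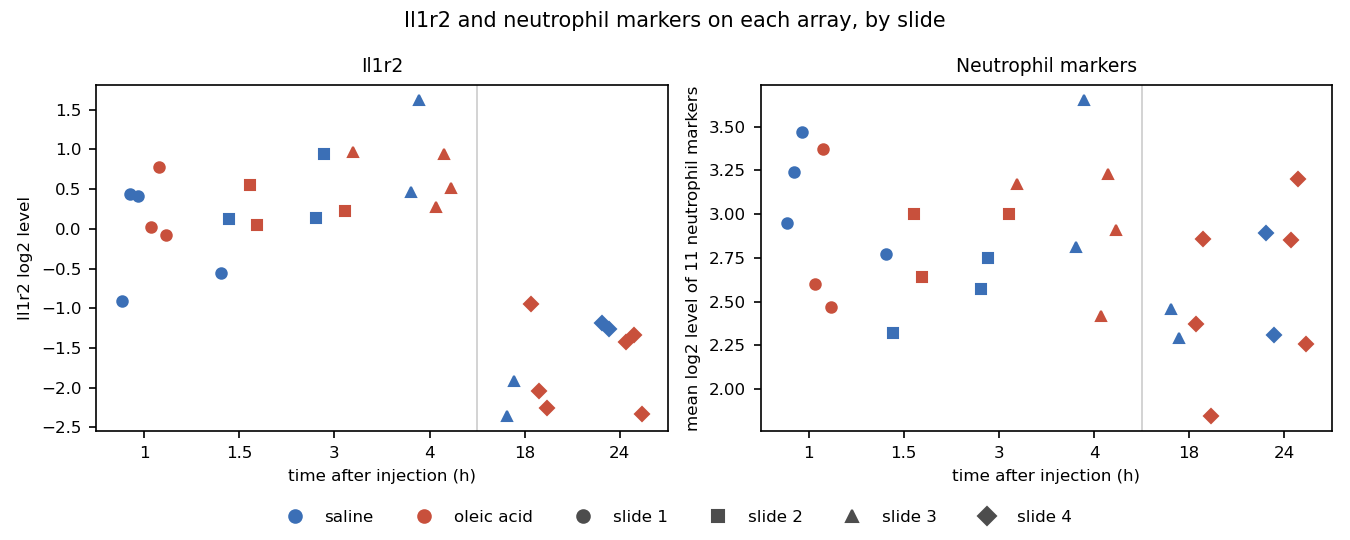
Log2 level of Il1r2 (left) and mean log2 level of 11 neutrophil markers (right) on each of the 29 arrays against time, coloured by treatment, with a symbol for each slide. Triangles mark slide 3, on which saline 18 h arrays (-2.35 and -1.92) lie below the 4 h arrays for Il1r2. The neutrophil means of late and early arrays overlap.

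Il1r2 is made by neutrophils and monocytes among other cells, so markers of these cells are given beside it. Of the 12 neutrophil markers listed 11 were measured, and 0 of 11 were called over time in either treatment. Of all features 2.77% were called in saline and 4.92% in oleic acid mice. The markers had a median difference of -0.59 in saline and -0.38 in oleic acid mice. In saline mice Ltf alone lay above 0 (0.22), and Cxcr2 and Mmp8 were lowest (-0.85 each). A count of 0 does not show that neutrophils stayed alike. Their mean level ran from 2.32 to 3.65 on early and 2.29 to 2.89 on late saline arrays, and from 2.42 to 3.37 and 1.85 to 3.2 in oleic acid mice, with overlap in both. All 11 lay above background on 29 of 29 arrays. Of 6 monocyte markers measured of 7 listed, 0 were called in saline mice. In oleic acid mice, with 4.92% of all features called, Ccr2 was higher (0.75, adjusted p = 0.018), and Csf1r (-0.36, 0.0185) and Fcgr4 (-0.74, 0.0124) were lower in limma. The part of cell numbers in the Il1r2 fall was not tested.

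The features most like Il1r2 over 29 arrays were Mxd1 (r = 0.93), a partner of MAX that represses transcription, Zfp787 (0.90) and Rhoj (0.89). The 29 arrays share slides, scaling and times, and likeness within the early or the late arrays alone was not tested.

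The stretch before the start of Il1r2 is shown because this gene changed, with each CACGTG in capitals (RefSeq, GRCm38.p6, chr1:40085843-40086092, plus strand). The same stretch of Il6, the cytokine high at 3 h, follows with its match to the NF-kappaB consensus in capitals (chr5:30012864-30013113, plus strand). Each covers 250 bases up to the start.
Il1r2 promoter: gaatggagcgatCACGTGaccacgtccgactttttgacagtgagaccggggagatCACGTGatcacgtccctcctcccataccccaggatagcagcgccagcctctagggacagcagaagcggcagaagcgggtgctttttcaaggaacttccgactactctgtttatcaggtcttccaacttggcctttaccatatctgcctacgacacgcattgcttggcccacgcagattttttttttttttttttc
Il6 promoter: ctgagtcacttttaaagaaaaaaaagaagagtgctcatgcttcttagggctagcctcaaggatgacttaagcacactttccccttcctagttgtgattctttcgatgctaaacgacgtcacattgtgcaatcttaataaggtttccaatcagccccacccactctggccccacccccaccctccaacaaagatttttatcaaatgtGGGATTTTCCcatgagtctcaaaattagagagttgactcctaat

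CACGTG, which is its own reverse complement, stood at 238 and 195 bases before the Il1r2 start. It occurred in 6.02% of 32851 promoters of this length, and 0.429% held 2 or more. The NF-kappaB consensus, searched on both strands, stood 44 bases before the Il6 start and occurred in 3.9% of promoters. All 10 genes were in the table, with 13 promoters. CACGTG also occurred in that of Il6ra and the NF-kappaB consensus in 1 of those of Il1r1. The motifs were chosen after the values were seen, and a match is a description of the letters.

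The other 8 tested genes were not called over time in either treatment. Late minus early, Il1b differed by -0.88 (-1.62 to -0.14, unadjusted p = 0.022, adjusted p = 0.221, limma) in saline mice and -0.64 (-1.28 to 0.00, adjusted p = 0.258) in oleic acid mice, with overlap in both. Il6ra differed by -0.30 (-0.61 to 0.02) in saline and -0.36 (-0.63 to -0.09, adjusted p = 0.121) in oleic acid mice, and within slide 3 by -0.83 (adjusted p = 0.0579). Il6 differed by -1.20 (-2.71 to 0.31) and -0.66 (-1.96 to 0.63), the early arrays including those of 3 h. Tnf, Il1rn, Il1r1, Tnfrsf1a and Tnfrsf1b had intervals that held 0 in both treatments.

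Genes of the 3 pathways around these members were counted from lists chosen by their known roles. In the IL-1 list 19 of 23 genes were tested, in the IL-6 list 16 of 16 and in the TNF list 21 of 21, and 0 were called for oleic acid against saline in any of the 9 such comparisons. For the mean over 1 to 4 h the list medians were -0.04, -0.11 and -0.02, and the median of all features was -0.03. The uncalled differences with the smallest p in each list were Casp1, the protease that matures interleukin 1 beta, at 0.26 (0.05 to 0.48, adjusted p = 0.66, limma), Tyk2, a Janus kinase, at 0.57 (0.06 to 1.08, 0.66), and Nfkbia, the inhibitor of NF-kappaB, at -0.46 (-0.81 to -0.11, 0.66). Next to them Irak3, which restrains interleukin 1 signalling, differed by 0.30, Adam17, the protease that sheds TNF and its receptors, by -0.47, and Map3k7, the kinase TAK1, by -0.16. For the mean over 18 and 24 h the values were 0.25 for Irak3, 0.17 for Casp1, -0.26 for Il11ra1, 0.27 for Cebpd, -0.22 for Map3k7 and -0.21 for Tradd, each with an adjusted p of 0.944.

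Over time a few of these genes did pass. In saline mice 0 of 19 IL-1 genes, 1 of 16 IL-6 genes and 3 of 21 TNF genes were called, with 2.77% of all features called. Cebpd, a transcription factor of the acute phase response, fell by 1.09 (adjusted p = 0.018, limma), Birc3, an inhibitor of apoptosis, by 0.89 (0.00837) and Nfkbia by 1.1 (0.00894), while Fadd, the death domain adaptor, rose by 0.46 (0.0228). In oleic acid mice 0 of 19 IL-1 genes, 0 of 16 IL-6 genes and 3 of 21 TNF genes were called, with 4.92% of all features called. In the TNF list Birc3 differed by -0.70 (adjusted p = 0.00843), Nfkbia by -0.76 (0.0216) and Ikbkg, a subunit of the kinase that acts on Nfkbia, by 0.41 (0.0291). The list medians over time were -0.01, -0.07 and 0.01 in saline mice beside 0.02 for all features, and 0.00, -0.14 and -0.05 in oleic acid mice beside -0.02. Birc3 and Nfkbia were called lower in each treatment, and no other gene of the TNF list was. Of its 21 genes, 11 had a difference above 0 in saline and 8 in oleic acid mice.

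Features most like the remaining members were weaker matches. Il4i1 (r = 0.65) and Xrcc5 (0.64) came first for Tnf, and without the 2 arrays farthest from the median these r became 0.47 and 0.89, so the likeness of Il4i1 rests in part on those arrays. Set (0.73), Sat2 (0.71) and BC085271 (0.69) came first for Tnfrsf1b, with 0.48, 0.59 and 0.41 without the 2 farthest arrays. Il6 and Il1a were above background on too few arrays for this.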

How the data were processed

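Whole-lung RNA (200 ng) was labelled with Cy3. Per the submitters' processing notes, the software was Agilent Feature Extraction 10.5.1.1. The deposited scanner files, per the file headers, hold each spot's intensity, background-corrected by that software. The authors' table of deposited values is on the log2 scale (column medians 6.11 to 6.15), with background treatment not given in the sources used here. It served as an alternative, and 28 of its 31 columns matched their own array best.

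In R 4.3.3 (limma 3.58.1, statmod 1.5.0, data.table version 1.17.8) the processed signal of 59305 non-control spots was put on the log2 scale minus the array's 75th percentile. Outlier-flagged spots were left out and spots of a probe averaged. A probe was kept if all arrays of some group among those used read it above background (34928). The kept probe with the highest mean over all 31 arrays, those left out of the comparisons included, represented its gene. For Tnfrsf1a this chose A_52_P192426, which read 6.30 on the left-out oleic acid 1.5 h replicate 3. Over the 29 arrays used, A_55_P2051099 had the slightly higher mean (medians 2.92 and 2.91). Symbols came from RefSeq accessions (26582 probes) or file symbols (3094), and 26005 probes had none. The 12 group means were fitted in limma for 11 comparisons, with Benjamini-Hochberg adjustment over 29309 features and a threshold of 0.05, and recovery was tested on simulated data. Alternatives were other background corrections and scalings, the deposited values, no filter, every probe on its own, flagged spots kept, slide or replicate number as a block, all 31 arrays and each array left out. The folds with raised arrays take, per array of the group without detection, the higher of the lowest signal above background and the probe's own. The other group keeps its measured values.

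Labels give no more than 1 mouse per array. Deviations of same-numbered arrays had an r over 0.1 in 7 of 12 pairs (from -0.77 to 0.63). With groups of 2 or 3 arrays this cannot settle whether the numbers pair mice, and no pairing was used in the main fit. The members and lists were chosen with earlier results of these data known. All members are named. Pathway genes are named where called, otherwise up to 2 per list by smallest p, and the 3 most similar features by Pearson r for members above background on at least 15 arrays. One feature that this rule names is not reported here.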

Additional observations from a re-analysis of the deposited data

Results flagged for a closer look

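The 2 arrays left out of the main comparisons held some member levels above those of every saline array. On oleic acid 1.5 h replicate 3 Il1b stood at 4.86, Il6ra at 7.07 and Tnfrsf1a (A_52_P192426) at 6.30. On oleic acid 3 h replicate 2 Il1a stood at -0.12, while Il1b (-0.57), Il1r1 (-1.49), Il6ra (2.26) and Tnfrsf1a (0.33 and 0.47 by its 2 probes) stood below every saline array. The other levels read on these arrays lay within the range of the saline arrays. The arrays had spike-in slopes of 1.66 and 0.751 and 15585 and 1096 spots with an outlier flag, against at most 365 on the other arrays. No group held 4 or more arrays, so no array was tested against its own group.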

How the results depend on the processing

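Of 4015 alternative values of the 99 member results, 4014 kept their side of the threshold and 1 gained the call: Tnf at 4 h, -2.81 without saline 4 h replicate 1. Among the 4015 is the Il1r2 contrast within slide 3, a different comparison that was entered as kept by default. A result not called in either run counts as kept whatever its sign or size. Il6 at 4 h, for instance, ran from -4.44 to 0.91. For uncalled results the count thus says little. Il1r2 over time kept both calls in every alternative run that could estimate them (limma, adjusted p up to 0.0301 in saline and 0.00553 in oleic acid mice). Slide as a fixed term could estimate 6 of the 11 comparisons, and neither comparison over time was among them. As a random block slide had a correlation of -0.05, so that run hardly adjusted for slide. The counts of features called moved more. At 1, 1.5, 3, 4, 18 and 24 h they were 0, 1, 0, 1, 7 and 4, for the early and the late mean 1 and 5, for the late minus early effect 0, and over time 811 in saline and 1442 in oleic acid mice. With all 31 arrays they were 0 at 1.5 h, 0 at 4 h, 3 at 18 h, 0 at 24 h, 0 and 1 for the means, and 39 and 81 over time. Normexp gave 0 at 1.5 h, 0 at 4 h, 1 at 24 h and 0 for the early mean. Quantile scaling gave 3 at 1.5 h, 2 at 4 h, 3 at 18 h, 2 at 24 h, 0 and 0 for the means and 907 over time in oleic acid mice. Median centring gave 0 at 1.5 h, 0 at 4 h, 1 for the late mean, and 69 and 68 over time. The deposited table gave 0 at 1.5 h, 6 at 4 h, 11 at 18 h, 0 at 24 h, 0 and 2 for the means and 954 over time in oleic acid mice. With no filter on dim probes the counts were 2 at 24 h, 0 for the early mean, and 341 and 806 over time. Slide as a random block gave 2790 over time in oleic acid mice, and as a fixed term 13 at 3 h, 2 at 4 h, 0 at 24 h and 0 for the early mean. The replicate block gave 2 at 24 h and changed no member's call, and whether the numbers pair mice is not known. Without the 5 arrays over 70% of spots above background, an alternative chosen after seeing the data, the counts were 22 at 1.5 h, 3 at 4 h, 132 at 18 h, 0 and 80 for the means, 27 for the late minus early effect and 782 over time in oleic acid mice. The cause was not tested. Leaving out 1 array at a time gave 0 to 1 at 1 h, 1 to 8 at 1.5 h, 0 to 124 at 3 h (highest without oleic acid 3 h replicate 1), 1 to 29 at 4 h (highest without saline 4 h replicate 1), 4 to 42 at 18 h (highest without saline 18 h replicate 2) and 0 to 26 at 24 h (highest without saline 24 h replicate 1). It gave 0 to 2 and 4 to 21 for the means, 0 to 10 for the late minus early effect, 222 to 950 (lowest without saline 18 h replicate 1) and 755 to 1596 over time, and 2 to 3 calls of members. By the looser detection flag 287 of 290 member values lay above background, against 246. Signal near background limits Il1a, Il6, Il1rn and Tnf.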
